A study of Homo sapiens with 2 samples.

Results

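The genes examined here are the human selenoproteins and the genes for making, inserting and supplying selenocysteine, 34 of the 60616 genes listed for HSC-3 cells. They were picked by gene symbol, a rule that uses no measured value, as 25 selenoprotein genes and 9 machinery genes, and all 34 symbols were found in the deposited tables. HSC-3 is an established human cell line from a squamous cell carcinoma of the tongue, a head and neck cancer (HNSCC), and it was grown in serum-containing medium. One culture received 0.1% DMSO, the vehicle, and one received 1 µM FIN56 for 48 h. The labels give no time for the DMSO culture and do not say whether the FIN56 culture held the same share of vehicle. Each condition is 1 library of 1 cell line, so differences between them were not checked against replicates, and p-values are not given.

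Selenoproteins carry selenocysteine, an amino acid that resembles cysteine with selenium in place of sulfur, most often at the catalytic site of a redox enzyme. Selenocysteine is encoded by UGA, elsewhere a stop codon, and is inserted only when the mRNA also holds a stem-loop called the SECIS element, which recruits SECISBP2 and the elongation factor EEFSEC. The amino acid is built on its own tRNA. The kinase PSTK phosphorylates the serine that this tRNA first carries, and SEPSECS exchanges the phosphate for selenium from selenophosphate, which SEPHS2 makes. FIN56 is a small molecule known to lower the GPX4 protein and to bind squalene synthase, and GPX4 is the selenoprotein that reduces lipid hydroperoxides in membranes and so holds back ferroptosis. An isoprenoid of the mevalonate pathway is the donor with which TRIT1 modifies the selenocysteine tRNA, so the machinery has a known link to that pathway. The comparison of the FIN56 and DMSO libraries asks which genes differed in HNSCC cells under a sublethal ferroptotic stress, here for the transcripts of this system.

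The codon that defines a selenoprotein is shown here for the members whose values are described most closely. In the canonical transcripts of GENCODE release 44, all 25 selenoprotein genes held an annotated UGA selenocysteine codon and the 9 machinery genes held none. The coding sequences around it are written 5′ to 3′ as DNA, in lower case, with the selenocysteine codon in capitals. The glutathione peroxidases and SELENOW are given with 12 bases on each side, and the thioredoxin reductases end at their last sense codon.
GPX1: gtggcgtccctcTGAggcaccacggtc
GPX2: gtggcttcgctcTGAggcacaaccacc
GPX3: gtggccagctacTGAggcctgacgggc
GPX4: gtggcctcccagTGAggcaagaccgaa
SELENOW: tattgtggcgctTGAggctacaagtcc
TXNRD1: caggctggctgcTGAggt
TXNRD2: gtgacaggctgcTGAggg
TXNRD3: cagaaaggctgcTGAggc
All 5 GPX genes, GPX6 included, had a glycine codon next, and they shared 12 of the 27 bases. In the 3 TXNRD genes the codon was the last but one of the protein, was followed by a glycine codon, and 12 of the 18 bases were shared. Over the 22 genes with 1 selenocysteine codon, 13 had a glycine codon next. SELENOP has 10 such codons in its transcript, and SELENON and DIO2 have 2 each.

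The values were read in both of the following measures for each gene. TPM is the deposited transcript level of a gene, divided by gene length and scaled to the same total in each library, so that levels of different genes can be set side by side. The expected count is the number of reads assigned to the gene by RSEM, which divides a read between genes where it fits several. A gene was counted as higher with FIN56 at a TPM ratio (FIN56 over DMSO) of 1.5 or more, and as lower at 1/1.5 or less. Beside it stands the ratio of expected counts scaled by the library totals of 70184517 (DMSO) and 73062209 (FIN56), with an exact 95% Clopper-Pearson interval. The interval covers counting error only and compares these libraries, not the conditions. The labelled cell type was checked against its markers. All 8 squamous epithelial markers were present, with a summed level of 8138.5 TPM (DMSO) and 7459.8 TPM (FIN56). Of the leukocyte markers reported, PTPRC and CD3E were listed at 0 in both libraries, and CD68, which is not confined to leukocytes, was at 85.7 and 37.6 TPM. The fibroblast markers together reached 6.89 and 3.82 TPM and the endothelial markers 0.12 TPM in each library.

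A minimum of 50 expected counts over both libraries was met by 28 members, which are described below as the genes tested, 19 selenoproteins and all 9 machinery genes. GPX6, DIO3 and SELENOV were listed at 0 in both libraries, which allows a count of up to 3 per library, or 0.0427 and 0.0411 CPM. DIO1 had 4 expected counts with DMSO and 7 with FIN56, DIO2 had 15 and 18, and SELENOP had 4 and 1.89. The deiodinases, which activate or inactivate thyroid hormone, and SELENOP, the plasma carrier of selenium, were therefore close to the limit of detection, and no fold change is given for these 6 genes.

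Among the 19 selenoproteins tested, SELENOW was higher in the FIN56 library, GPX2 and GPX3 were lower, and 16 lay between the thresholds. In RNA from a whole culture, a smaller share of cells with a transcript and less of it per cell cannot be told apart. None of the 9 machinery genes was past either threshold. Over all 15770 genes tested in the same way, 7.67% were higher and 9.25% were lower, against 5.26% and 10.5% of the selenoproteins. The median log2 TPM ratio was 0.087 for the selenoproteins, 0.060 for the machinery and 0.052 for all genes tested. Selenoproteins and machinery thus differed by 0.027 in their medians on the log2 scale, a difference with no replicate check that ranged from -0.34 to 0.10 under the other settings tried. The machinery median itself was below 0 with expected counts under each of the 3 scalings and with rlog values. The counting interval lay above 1 for 12 of the 28 members and below 1 for 9. Depth is high enough that 34.2% of all genes tested had an interval above 1 and 33.7% had one below 1, so an interval clear of 1 was common in these libraries.

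**Figure D1:**
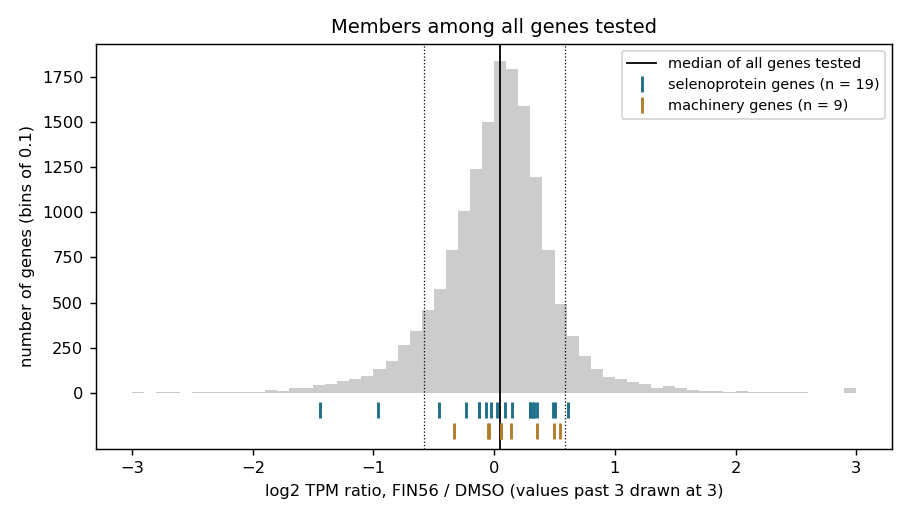
Distribution of the log2 TPM ratio (x axis) over the 15770 genes tested, as the number of genes in bins of 0.1 (y axis), with ticks below it for the 19 selenoproteins and 9 machinery genes. The solid line is the median of all genes, 0.052, the dotted lines mark 1.5-fold, and apart from SELENOW, GPX2 and GPX3 every tick lies between them.

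The selenoprotein transcripts spanned a wide range of levels. Their summed level was 1720.6 TPM with DMSO and 1969.7 TPM with FIN56, 14.5% more. The 5 most abundant, GPX4, GPX1, TXNRD1, SELENOF and SELENOT, held 77.7% of that sum with DMSO and 79.1% with FIN56. Of the difference of 249.1 TPM, 199.8 TPM (80.2%) came from GPX1, TXNRD1 and SELENOF. GPX4 had the highest TPM of the 34 members with DMSO and the second highest with FIN56, after GPX1. The 9 machinery genes were each at 4.04 to 59.1 TPM with DMSO and 4.45 to 61.5 TPM with FIN56, and together at 173.07 and 184.41 TPM.

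**Figure D2:**
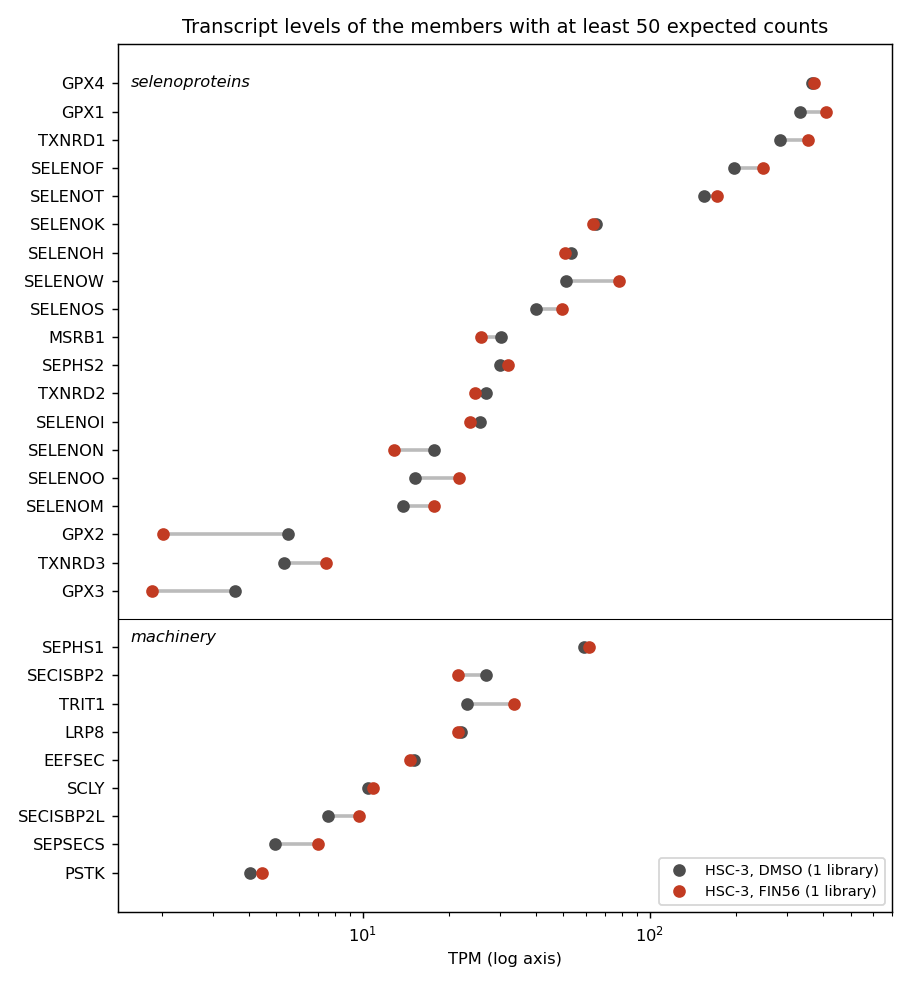
TPM (log x axis) of the 28 members tested with DMSO (grey) and with FIN56 (red), 1 library each, with selenoproteins above the line and machinery below it. GPX4 sits at 367 and 372 TPM, and the widest gap between the libraries belongs to GPX2, at 5.49 and 2.02 TPM.

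The glutathione peroxidases, which use glutathione to reduce peroxides, did not move together. GPX4 (ENSG00000167468; chromosome 19, 1103982 to 1106791, plus strand, GRCh38) had 11851 expected counts with DMSO and 12123 with FIN56, or 367 and 372 TPM. Its TPM ratio was 1.01 and its count ratio 0.983, with an interval of 0.958 to 1.01 that included 1. By these measures, its transcript was thus at nearly the same level in both libraries. FIN56 is known to deplete the enzyme as a protein, and protein was not measured in these files. In the paper, GPX4 protein was examined by western blot in HSC-3 cells at the same dose and time. GPX1, the main cytosolic peroxidase for hydrogen peroxide, went from 335 to 412 TPM, a ratio of 1.23 that lay below the threshold, with a count ratio of 1.21 (interval 1.18 to 1.23). Its expected counts of 12519.93 and 15700.43 are not whole, so some of its reads were divided with other genes.

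GPX2 and GPX3 are the lower members. GPX2 (chromosome 14, 64939152 to 64942746, minus strand), a peroxidase of epithelia that is best known from the gut, had 218 expected counts with DMSO and 83 with FIN56. Its TPM fell from 5.49 to 2.02, a ratio of 0.368, and the count ratio was 0.366 (interval 0.281 to 0.473). GPX3 (chromosome 5, 151020591 to 151028988, plus strand), the secreted peroxidase of plasma, had 104 and 58 expected counts, 3.58 and 1.84 TPM, a TPM ratio of 0.514 and a count ratio of 0.536 (interval 0.382 to 0.746). Both are scarce beside GPX4 and GPX1, and together they made up less of the selenoprotein transcripts than SELENOM alone.

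The thioredoxin reductases return thioredoxin to its reduced form with NADPH. TXNRD1 (chromosome 12, 104215779 to 104350307, plus strand), the cytosolic enzyme, had the most expected counts of all members, 41918 with DMSO and 54288 with FIN56. It went from 284 to 355 TPM, a ratio of 1.252, and its count ratio of 1.24 had a narrow interval of 1.228 to 1.260. TXNRD3, which is best known from testis, was at 5.31 and 7.43 TPM with a ratio of 1.399 and a count ratio of 1.46 (interval 1.31 to 1.62). TXNRD2, the mitochondrial enzyme, was at 26.8 and 24.5 TPM with a ratio of 0.914 and a count ratio of 0.927 (interval 0.868 to 0.991). TXNRD1 and TXNRD3 therefore stood above 1 and the mitochondrial form below it, all 3 within 1.5-fold.

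TXNRD1 and GPX2 are both known targets of NRF2, the transcription factor of the oxidative stress response, and their ratios lay on opposite sides of 1. Their promoters are shown for that reason. The core letters of the antioxidant response element that NRF2 binds, TGACNNNGC on either strand, were searched in the RefSeq windows of GRCh38.p14. Each window ran from 250 bases before to 50 bases after a start, and a gene can have several windows. The windows of 30 members were matched by symbol (not SELENOM, SELENOO, SEPSECS and TRIT1), and 7 of these genes (23.3%) held a match, against 16.1% of all 27305 genes with a window. Counted by window, it was 8 of 40 (20%) against 13.4% of all windows. The matches are given 5′ to 3′ with up to 6 bases on each side and the core in capitals.
GPX2, chr14:64942853-64942873, plus strand: ccaggaTGACTTAGCaaaaac
TXNRD1, chr12:104215674-104215694, plus strand: gggctaTGACTTCGCtgttgt
TXNRD1, chr12:104215765-104215785, minus strand: gggaacTGACGGAGCcgaagg
TXNRD1, chr12:104286924-104286944, minus strand: tcagaaTGACAAAGCagaaat
Both genes thus held the letters, and their TPM ratios were 0.368 (GPX2) and 1.252 (TXNRD1). The pair was picked after these values were seen, and a role of NRF2 in them was not tested. The TXNRD1 match at 104286924 lies inside the gene, in the window of another start, and use of that start was not tested. The other genes with a match were SCLY, SECISBP2, SELENOK, SELENON and SELENOP. A match is a description of the letters, and binding was not measured.

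The selenoproteins of the endoplasmic reticulum all had a TPM ratio between 0.729 and 1.28, and none of these 7 passed a threshold. SELENOF, which associates with the folding sensor for glycoproteins, was the most abundant of them at 197 and 248 TPM, with a ratio of 1.258 (count ratio 1.21, interval 1.18 to 1.24). SELENOM, a relative of SELENOF with a thioredoxin-like fold, was at 13.8 and 17.6 TPM, a ratio of 1.28. SELENOS and SELENOK both belong to the complex that exports misfolded proteins for degradation. SELENOS was at 40.1 and 49.3 TPM (ratio 1.23, count interval 1.154 to 1.297), and SELENOK at 64.7 and 63.6 TPM (ratio 0.984, count interval 0.96 to 1.08). The partners of that complex thus differed in their values, SELENOS with an interval above 1 and SELENOK with one that included 1, a difference that was not tested.

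SELENOT, an oxidoreductase of the same membrane, was at 155 and 171 TPM with a ratio of 1.10. SELENOI, the phosphotransferase that makes phosphatidylethanolamine, a lipid class whose polyunsaturated members are oxidised in ferroptosis, was at 25.7 and 23.6 TPM with a ratio of 0.919 (count ratio 0.873, interval 0.848 to 0.899). SELENON, which is linked to calcium handling in muscle, was at 17.6 and 12.9 TPM. Its ratio of 0.729 was the lowest of the endoplasmic reticulum members, with a count ratio of 0.695 (interval 0.659 to 0.733). The TPM ratio stayed inside the threshold of 1/1.5, which the count interval spans.

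SELENOW (ENSG00000178980; chromosome 19, 47778677 to 47784686, plus strand), a small thioredoxin-like protein whose level is known to follow the selenium supply, was the only member past the upper threshold. It had 1740 expected counts with DMSO and 2706 with FIN56, or 51.2 and 78.1 TPM. The TPM ratio was 1.53 and the count ratio 1.49, with an interval of 1.41 to 1.59 that spans the threshold. By the deposited FPKM values, in which ratios are lower by a constant factor, the ratio was 1.49, and SELENOW was not past 1.5. Members just inside the upper threshold were TRIT1 (1.46), SELENOO (1.42), SEPSECS (1.41) and TXNRD3 (1.399). SELENOW thus lay close above the threshold, and 4 members lay close below it.

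Other selenoproteins known for their dependence on selenium supply did not share its value. GPX1 was at a TPM ratio of 1.23. SELENOH, a nuclear redox protein, was at 53.1 and 50.7 TPM (ratio 0.956, count ratio 0.877, interval 0.812 to 0.946). MSRB1, which repairs oxidised methionine, was at 30.2 and 25.7 TPM (ratio 0.851, count ratio 0.836, interval 0.778 to 0.899). These 4 genes were grouped from general knowledge after their values had been seen, and they lay on both sides of 1. SELENOO, a mitochondrial enzyme that attaches AMP to other proteins, was at 15.2 and 21.6 TPM with a ratio of 1.42 (count ratio 1.38, interval 1.29 to 1.48). SEPHS2, at once a selenoprotein and the enzyme that makes selenophosphate, was at 30.09 and 31.96 TPM with a ratio of 1.06 (count interval 0.989 to 1.09).

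**Figure D3:**
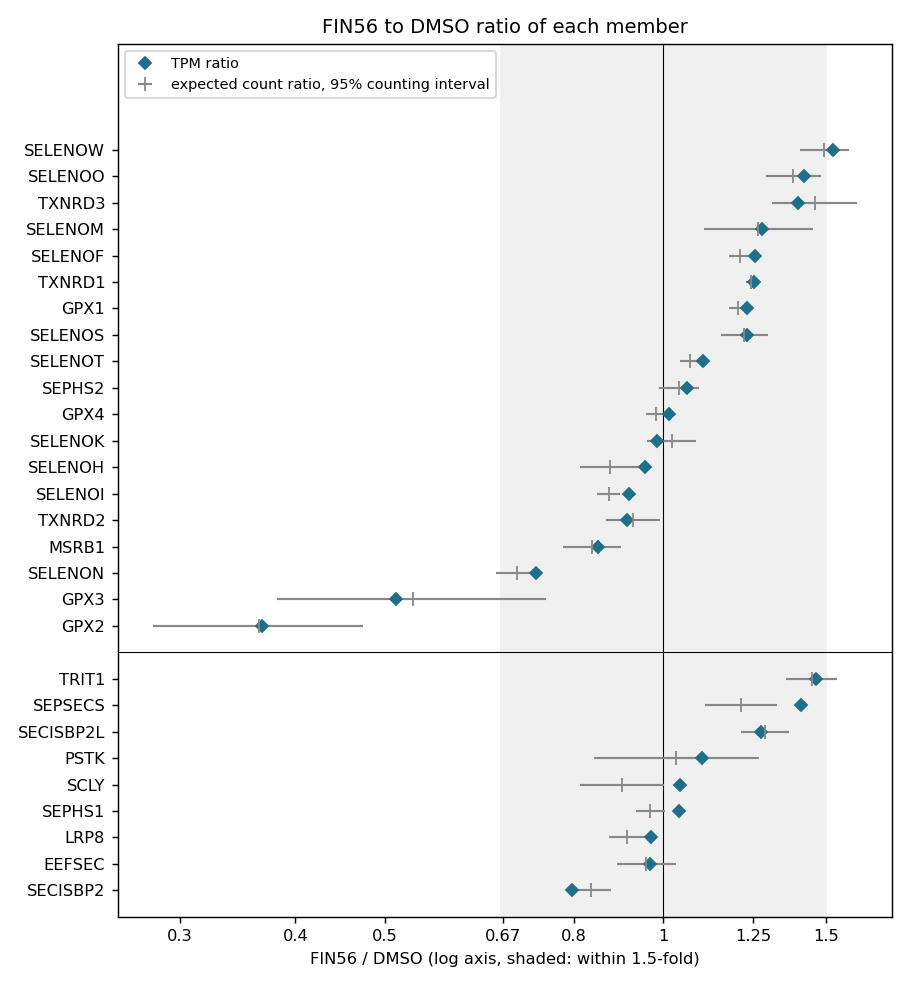
FIN56 to DMSO ratio (log x axis) of the 28 members tested, as the TPM ratio (diamonds) and as the ratio of expected counts with its exact 95% counting interval (grey bars), selenoproteins above the line and machinery below it. Ratios run without a break from 0.729 (SELENON) to 1.53 (SELENOW), and GPX3 (0.514) and GPX2 (0.368) stand to the left of the shaded band of 1.5-fold.

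The 4 machinery genes grouped under synthesis (TRIT1, SEPSECS, PSTK and SEPHS1) had TPM ratios from 1.04 to 1.46, and SEPHS2, described above with the selenoproteins, also belongs to that step. TRIT1 (chromosome 1, 39838110 to 39883511, minus strand), which adds the isoprenoid to the selenocysteine tRNA and to other tRNAs, had the highest ratio of the machinery. It had 1648 expected counts with DMSO and 2483 with FIN56, 22.99 and 33.63 TPM, a TPM ratio of 1.46 and a count ratio of 1.45 (interval 1.36 to 1.54). SEPSECS, which completes selenocysteine on the tRNA, was at 4.94 and 6.96 TPM, a ratio of 1.41, while its count ratio was 1.21 (interval 1.11 to 1.33). From the DMSO to the FIN56 library its effective gene length, as estimated by RSEM, fell by 11.9%, and TPM divides by that length. PSTK was scarce, with 186 and 200.08 expected counts, 4.04 and 4.45 TPM, and a count interval of 0.842 to 1.27. SEPHS1, a relative of SEPHS2 without selenocysteine, was at 59.1 and 61.5 TPM (ratio 1.04), but its count ratio was 0.968 (interval 0.933 to 1.004).

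The genes of the insertion step did not move together. SECISBP2, the protein that binds the SECIS element, was at 26.9 and 21.4 TPM, with a ratio of 0.796 and a count ratio of 0.835 (interval 0.794 to 0.879). Its paralog SECISBP2L was at 7.59 and 9.69 TPM, with a ratio of 1.28 and a count ratio of 1.29 (interval 1.21 to 1.37). The paralogs therefore stood on opposite sides of 1 under each of the 7 scalings compared, with SECISBP2 between 0.779 and 0.939 and SECISBP2L between 1.12 and 1.32. EEFSEC, the elongation factor that carries the selenocysteine tRNA to the ribosome, was at 15.1 and 14.6 TPM with a ratio of 0.967 (count interval 0.891 to 1.03). For supply, LRP8, the receptor through which many cells take up SELENOP, was at 22.02 and 21.37 TPM (ratio 0.970). The LRP8 count ratio of 0.914 had an interval of 0.8729 to 0.9565, below 1. SCLY, which recovers selenium from selenocysteine, was at 10.4 and 10.9 TPM (TPM ratio 1.04). The SCLY count ratio of 0.903 had an interval of 0.813 to 1.002 that included 1.

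**Figure D4:**
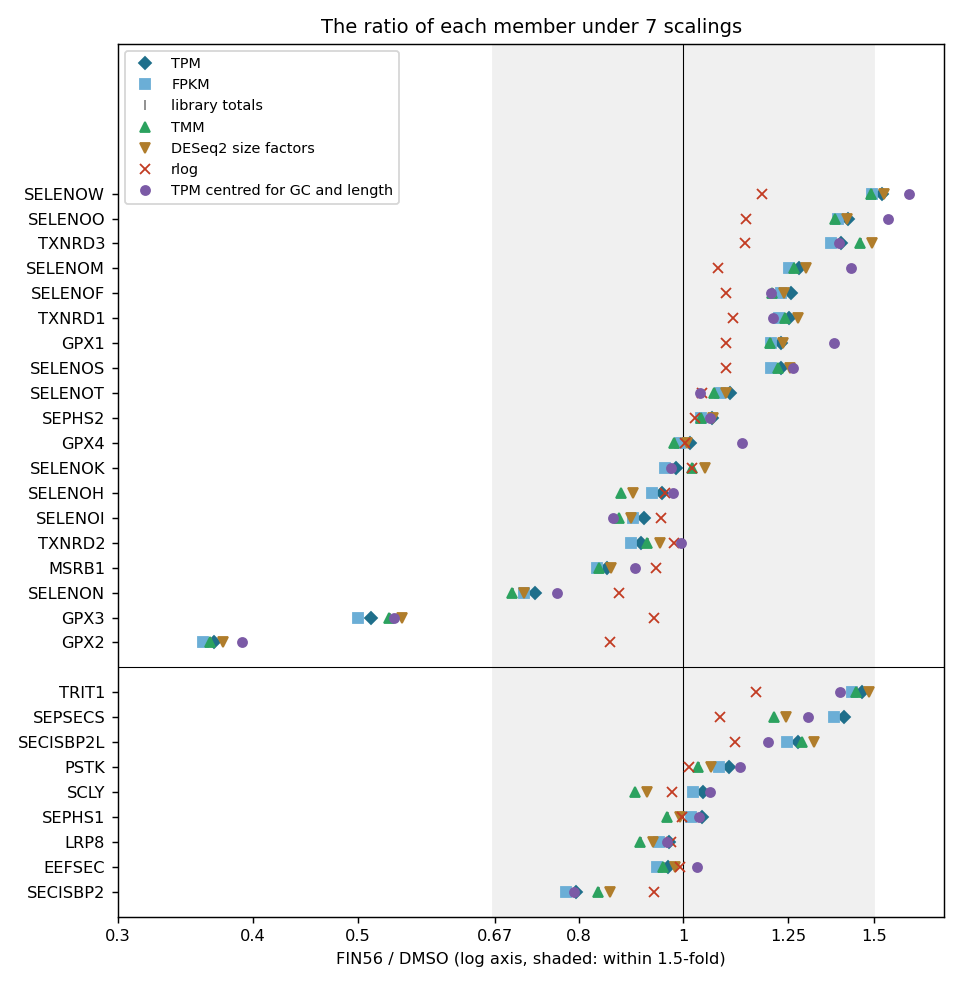
FIN56 to DMSO ratio (log x axis) of the 28 members under 7 scalings, namely TPM, FPKM, expected counts scaled by library totals, by edgeR TMM or by DESeq2 size factors, rlog values, and TPM centred for GC content and transcript length. For 23 of the members all 7 points lie on the same side of 1, and GPX4, SELENOK, SEPHS1, EEFSEC and SCLY have points on both sides.

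Across these scalings GPX2 ranged from 0.36 to 0.856 and GPX3 from 0.5 to 0.939, both below 1 throughout. SELENOW ranged from 1.18 to 1.62 and TRIT1 from 1.17 to 1.48, both above 1 throughout. GPX4 ranged from 0.981 to 1.13, with the highest value after centring for GC content and length. For each gene named in this paragraph, the value nearest 1 was that of the deposited rlog measure, which draws libraries together.

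A property that the choice of members did not use is where the selenocysteine codon lies in the transcript. A UGA that is read as a stop far upstream of the last exon junction can expose an mRNA to nonsense-mediated decay, and for this reason some selenoprotein mRNAs are known to be sensitive to selenium supply. In the canonical transcripts, 11 of the 19 selenoproteins tested had their first selenocysteine codon at least 50 bases upstream of the last junction. SELENOW (243 bases), GPX4 (342 bases), GPX1 (105 bases), GPX2 (102 bases) and GPX3 (240 bases) were among them. Of these 11 genes, 1 was higher and 2 were lower, the median TPM ratio was 1.01, and the ratios ran from 0.368 to 1.53. The other 8, in which the codon is in the last exon, close to the last junction or in the intronless SEPHS2, had a median TPM ratio of 1.14, a range of 0.851 to 1.42 and no member past a threshold. With 7.67% of all genes higher and 9.25% lower, counts of 3 of 11 and 0 of 8 are too small to set these groups apart. GPX2 and GPX1, whose codons lie 102 and 105 bases upstream, had ratios of 0.368 and 1.23. This is a description of 19 genes in 1 pair of libraries, and neither decay nor selenium was measured.

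**Figure D5:**
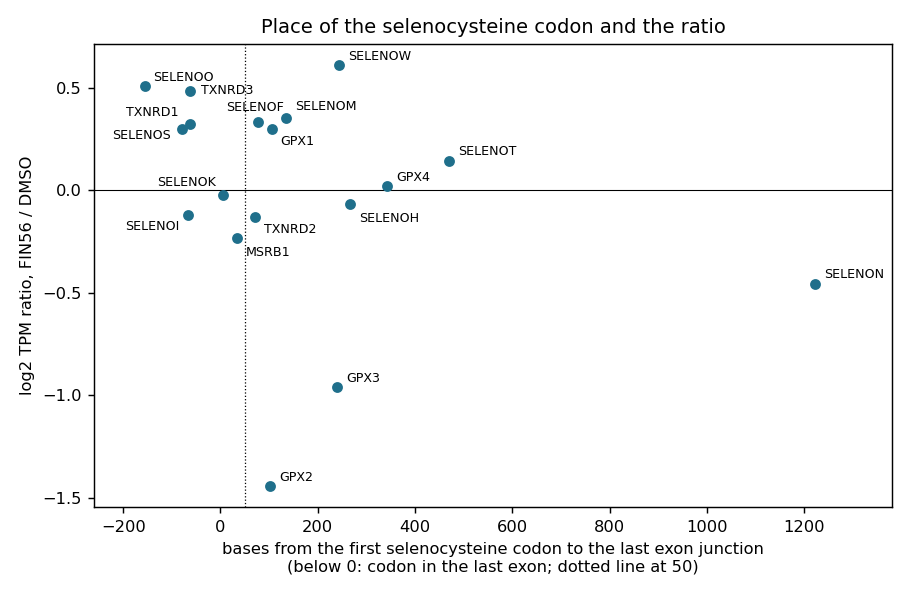
Distance in bases from the first selenocysteine codon to the last exon junction (x axis, below 0 for a codon in the last exon) and log2 TPM ratio (y axis) for the tested selenoproteins with more than 1 exon, each point 1 gene. Genes right of the dotted line at 50 bases span the whole range of ratios, from GPX2 at -1.44 to SELENOW at 0.61.

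Genes around this system were read from a separate list of 15 (helpers of the selenocysteine tRNA, other SECIS-binding proteins, nonsense-mediated decay factors, selenium handling, and receptors that remove truncated selenoproteins), of which 13 were tested. None was higher and 1 was lower, against 7.67% and 9.25% of all genes. KLHDC3, a ubiquitin ligase receptor for proteins with certain C-terminal ends, fell from 22.01 to 13.31 TPM, a ratio of 0.605 (count ratio 0.592, interval 0.549 to 0.638). Of the 13 tested, 10 had a ratio above 1 and 7 (53.8%) a counting interval above 1, with a median ratio of 1.13. Over all genes tested, 34.2% had an interval above 1 and the median ratio was 1.036. With 13 genes, the list is too small to set apart from that background. Its highest TPM ratio, 1.375, was that of TRNAU1AP, a protein that associates with the selenocysteine tRNA, at 40.7 and 56.0 TPM. The TRNAU1AP count ratio of 1.31 (interval 1.23 to 1.39) was not the highest of the list. The 7 relatives that carry cysteine or belong to the same families without selenocysteine gave 5 tested genes, with none past a threshold and ratios from 0.907 (MSRA) to 1.17 (MSRB2). Among them GPX8, the most abundant, was at 76.9 and 86.0 TPM, and glutathione reductase (GSR) was at 47.4 and 46.9 TPM.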

How the data were processed

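Total RNA of HSC-3 cells was sequenced after a stranded mRNA preparation, 1 library with DMSO and 1 with FIN56. The paper's methods, written for tumor samples, and the processing notes name STAR 2.6.1a, RSEM 1.3.1, DESeq2 1.26.0 and GRCh38, and whether strand was used in counting is not given in the sources used here. The expected counts were deposited by the authors as RSEM estimates that are not normalized. The TPM and FPKM values deposited by the authors are divided by an effective gene length estimated in each library, so a shift in isoforms changes them. The authors also deposited rlog values, a log2 measure shrunken by DESeq2. Names in the headers tied each of the 8 columns to its library.

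TPM ratios were computed here for genes above 0 in both libraries with at least 50 expected counts together, with the 1.5-fold criterion that the study applied to FPKM. Intervals used expected counts rounded to whole numbers. Depth was 70184517 (DMSO) and 73062209 (FIN56) expected counts. Without molecular identifiers, reads can be copies of 1 molecule, which the intervals leave out. The interval and the fold threshold were tested only on simulated counts with counting error alone and planted changes well past the threshold. Changes near the threshold, divided reads and replicate spread were not simulated. Positions and codons came from GENCODE release 44 on GRCh38, which all 34 members matched by Ensembl identifier, and promoters from RefSeq. The members were picked by symbol, but the choice of this gene set and of the other lists was made with earlier results of these data known. All tested members were named, and of the other lists those past a threshold or, in a list with none, the most abundant, with TRNAU1AP, MSRA, MSRB2 and GSR added after their values were seen. Alternatives used edgeR 4.0.16 and DESeq2 1.42.0 scaling factors only, in R 4.3.3, and the rest Python 3.11.15 with pandas 2.3.3, numpy 2.4.6, scipy 1.17.1 and matplotlib 3.10.9. A leukocyte marker is not reported here.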

Additional observations from a re-analysis of the deposited data

How the results depend on the processing

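Each condition has 1 library, so no replicate could be left out, and no paired analysis was possible because there are no replicates to pair. Results were recomputed under 15 other settings. The counts of members past 1.5-fold are small, and the higher one rests on SELENOW alone: 0 selenoproteins were higher by FPKM, by library totals, by TMM, by rlog and at a threshold of 2, and 2 were (SELENOW and SELENOO) after centring for GC content and length. The 2 lower selenoproteins, GPX2 and GPX3, became 0 with rlog values and 1 at a threshold of 2, and 3 (with DIO2) without a minimum or with at least 10 expected counts in each library. The machinery median of 0.060 (log2) changed sign to -0.047 with library totals, -0.049 with TMM, -0.011 with DESeq2 size factors and -0.0042 with rlog values, and was 0.42 over the 4 machinery genes with whole expected counts, where selenoproteins minus machinery was -0.34. That difference, 0.027 as reported, was 0.10 under each of the 3 count scalings, 0.0013 after centring and -0.0064 with 10 counts in each library. KLHDC1, with 22 and 35 expected counts, was a further pathway gene counted as higher (1) by library totals, TMM and DESeq2 size factors. The 1 lower pathway gene became 0 with rlog values or a threshold of 2, and 2 without a minimum. All genes numbered 1209 higher and 1459 lower, and 7 and 16 with rlog values, 3856 and 4090 without a minimum, 536 and 714 with a pseudocount of 1 TPM, 388 and 465 at a threshold of 2, and 753 and 971 among protein-coding genes. Fewer or more genes pass by construction under a filter or another threshold, rlog draws libraries together, and elsewhere the cause was not tested. Single member values under other scalings or pseudocounts numbered 224. A reversed call was possible only for SELENOW, GPX2 and GPX3, and 0 occurred. GPX4, SELENOK, SEPHS1, EEFSEC and SCLY, which had no call, changed side of 1 between scalings. Of the 224 values, 54 lay further from the TPM ratio, on the log2 scale, than the counting interval of that gene reaches from its count ratio. Reads divided with other genes touch the 11 members whose expected counts were not whole, GPX1 and SELENON among them, whose values are less certain.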

Other observations

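TPM depends on the effective gene length that RSEM estimates in each library from the mix of isoforms. Among the 12564 genes whose FPKM reached 1 in each library, that length differed by more than 10% for 1693 (13.5%), and among the 28 members tested it did so for SEPSECS and SCLY. In SEPSECS the effective length was 3778 bases with DMSO and 3327 with FIN56, and in SCLY it was 1526 and 1351 bases. For these genes the TPM ratios of 1.41 and 1.04 therefore exceed the count ratios of 1.21 and 0.903. The deposited tables give genes and not isoforms, so which transcripts differ was not tested.

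In DIO2, near the limit of detection, the effective length was longer with FIN56, at 2137 and 6159 bases, with 15 and 18 expected counts beside 0.14 and 0.06 TPM.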
